A study of Mus musculus with 89 samples.

Results

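The genes described here encode subunits of the Polycomb repressive complexes in mouse embryonic stem cells. They were taken from the deposited RNA-seq count table by their symbols: Ezh2, Ezh1, Eed, Suz12, Jarid2 and Mtf2 for Polycomb repressive complex 2 (PRC2), and Rnf2, Ring1, Pcgf6 and Cbx7 for Polycomb repressive complex 1 (PRC1). All 10 were among the 26276 features with a gene name, and all 10 were among the 18116 genes that passed the filter on low counts. The rule uses symbols and no measured value. Gene positions below are those of RefSeq on build GRCm38.p6.

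Both groups came from V6.5 mouse embryonic stem cells of genotype H2afz-FKBP-V, in which the gene for the histone variant H2A.Z.1 carries a degradation tag. The dTAG group holds 3 libraries, of cells labelled as given the dTAG molecule, which binds the FKBP-V tag and directs the tagged protein to the proteasome. The Control group holds 3 libraries of the same tagged cells. All were grown in 2i + LIF, a medium with inhibitors of MEK and GSK3 and the cytokine LIF that holds the cells in a naive state. The labels of the RNA libraries give no treatment time, and do not say whether the tagged line is a single clone or whether the replicates are separate cultures. The p-values therefore measure only the spread between these libraries, which may be technical. The comparison asks which transcripts differ in level once H2A.Z.1 is depleted.

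PRC2 is a methyltransferase that places methyl groups on lysine 27 of histone H3, a mark found over silent developmental genes. PRC1 is an E3 ligase that attaches ubiquitin to histone H2A, and some of its forms bind the mark made by PRC2 through a CBX protein. In embryonic stem cells both complexes occupy CpG-rich promoters of genes for lineage regulators, many of which also carry H2A.Z.

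Promoter sequences of 4 of these genes, from 2 pairs whose members differed in their values across libraries, are shown as context for the pairs: Suz12 and Ezh1 within PRC2, and the paralogues Rnf2 and Ring1 within PRC1. Each is the 250 bases before the annotated start in RefSeq (build GRCm38.p6), written 5′ to 3′ on the gene's strand. Capitals mark GC boxes, searched as GGGCGG on either strand.
Suz12, chr11:79992856-79993105, plus strand: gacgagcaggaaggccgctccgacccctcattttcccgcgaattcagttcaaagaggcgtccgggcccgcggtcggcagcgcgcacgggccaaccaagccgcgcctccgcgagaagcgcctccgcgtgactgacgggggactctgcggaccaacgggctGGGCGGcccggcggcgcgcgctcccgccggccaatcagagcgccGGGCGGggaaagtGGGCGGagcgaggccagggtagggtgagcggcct
Ezh1, chr11:101226464-101226713, minus strand: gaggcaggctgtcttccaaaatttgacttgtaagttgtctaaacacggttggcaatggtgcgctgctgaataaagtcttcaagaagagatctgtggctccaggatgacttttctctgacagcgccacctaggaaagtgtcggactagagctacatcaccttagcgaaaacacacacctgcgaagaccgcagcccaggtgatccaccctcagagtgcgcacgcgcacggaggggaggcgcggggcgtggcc
Rnf2, chr1:151500992-151501241, minus strand: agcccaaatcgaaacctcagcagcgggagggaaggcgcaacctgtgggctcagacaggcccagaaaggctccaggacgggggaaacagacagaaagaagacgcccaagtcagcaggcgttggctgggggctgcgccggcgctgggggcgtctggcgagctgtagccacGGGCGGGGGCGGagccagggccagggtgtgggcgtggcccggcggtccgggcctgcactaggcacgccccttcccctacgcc
Ring1, chr17:34024681-34024930, minus strand: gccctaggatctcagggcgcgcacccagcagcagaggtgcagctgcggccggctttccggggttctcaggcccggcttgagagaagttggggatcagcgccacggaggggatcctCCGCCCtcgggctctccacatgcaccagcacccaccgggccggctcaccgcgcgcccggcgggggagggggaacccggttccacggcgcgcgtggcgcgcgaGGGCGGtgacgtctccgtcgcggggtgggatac

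The Suz12 window held 37 CpG dinucleotides and 3 GC boxes, and the Ezh1 window held 14 CpG dinucleotides and 0 GC boxes. The Ezh2 window held 23 CpG dinucleotides and the Eed window 12, with 0 GC boxes in each. Of the 250 bases of the Ezh2 window, 240 lay within the gene's annotated span, so that window is mostly not upstream of it. Ezh2, Eed and Suz12 were all below the controls in dTAG replicate 3. Any link of these letters to the levels was not tested. The Rnf2 window held 20 CpG dinucleotides and the Ring1 window 30, with 2 GC boxes in each. RefSeq gave 12 windows for the 10 genes, of which 8 held a GC box, beside 32.7% of all 32851 windows of the same length. The Cbx7 window, the later Jarid2 window and the later Mtf2 window lay wholly within the annotated spans of their genes. The median CpG count was 22.5 in the 12 windows and 6 in all windows. These are matches of letters, and no binding or methylation was measured at them here.

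The libraries were unequal. Counts per library were 13214351, 2284068 and 2121183 in dTAG replicates 1, 2 and 3, and 14427884 to 16033011 in the controls. Of 1462 olfactory and vomeronasal receptor genes, which embryonic stem cells are not known to use, 23.5%, 71.5% and 97.0% had a count in dTAG replicates 1, 2 and 3, against 10.9% to 18.2% in the controls. They held 0.0165%, 0.245% and 0.827% of the counts in dTAG replicates 1, 2 and 3, against 0.00526% to 0.00629% in the controls. The stem cell label was met by its markers in the controls and dTAG replicate 1. All 9 markers had counts in all 6 libraries, but their summed level was lower in dTAG replicates 2 and 3, as given below. The H2afz transcript had a log2 fold change of -0.77 (SE 0.74, adjusted p = 0.487, edgeR), and since the tag acts on the protein this is no check of depletion. Results are given with and without the libraries that stand apart. In bulk RNA, fewer cells of a type and less RNA per cell cannot be told apart.

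None of the 10 Polycomb genes passed the test between the 3 dTAG and the 3 Control libraries. Levels are counts per 1000000 counts in named genes (CPM), and fold changes are dTAG over control, from edgeR's quasi-likelihood test with Benjamini-Hochberg adjustment over all tested genes at an adjusted p under 0.05. The share of all 18116 genes called was 0%, with 4202 at an unadjusted p under 0.05. Of the 10 Polycomb genes, only Ring1 had an unadjusted p under 0.05. In CPM, 6 genes (Ezh2, Eed, Suz12, Jarid2, Mtf2 and Rnf2) had lower dTAG than control means and 4 (Ezh1, Ring1, Pcgf6 and Cbx7) had higher ones. In each case most of that difference lay in dTAG replicates 2 and 3, while dTAG replicate 1 lay between 0.732 and 1.26 times the control mean for all 10 genes.

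**Figure D1:**
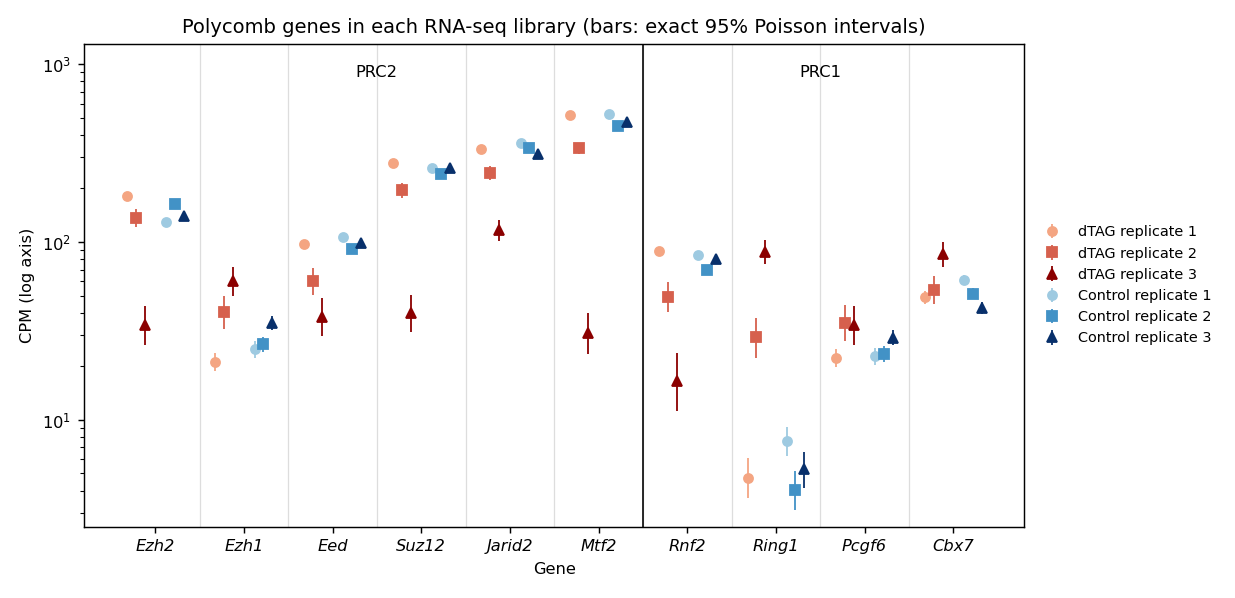
CPM on a log axis of the 10 Polycomb genes in each library, dTAG replicates left of the controls and PRC2 genes left of PRC1 genes; bars are exact 95% Poisson intervals, which cover counting error only. The dTAG replicate 3 points lie far below the controls for Mtf2 (30.9 CPM) and far above them for Ring1 (88.3 CPM), while dTAG replicate 1 lies close to the controls.

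Ezh2 (chr6:47530274-47595270) encodes the main catalytic subunit of PRC2 in dividing cells. It had 182, 137 and 34.2 CPM in dTAG replicates 1, 2 and 3, against 130, 164 and 141 CPM in Control replicates 1, 2 and 3. The dTAG libraries lay on both sides of the controls: replicate 1 was above all of them, replicate 2 within their range and replicate 3 below. Its log2 fold change was -0.67 (SE 0.88, adjusted p = 0.581, edgeR), smaller than its error. The level in dTAG replicate 3 rests on 62 counts, with an exact 95% Poisson interval of 26.2 to 43.9 CPM, so the gap from the controls there exceeds counting error. The gene overlaps an annotated long non-coding RNA on its span.

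Ezh1 (chr11:101191115-101226463), the paralogous methyltransferase, which is less active and known mainly from non-dividing cells, showed the opposite order. It had 21.2, 40.3 and 60.1 CPM in dTAG replicates 1, 2 and 3, against 24.9, 26.6 and 35.2 CPM in the controls. Replicate 1 was below every control, and replicates 2 and 3 were above every control. Its dTAG mean was 40.5 ± 19.5 CPM and its control mean 28.9 ± 5.54 CPM (SD, n = 3 each). The fitted log2 fold change was nevertheless -0.41 (SE 0.33, adjusted p = 0.446, edgeR), and it became 0.48 when libraries were scaled by their totals alone. The sign of Ezh1 thus depends on the scaling: under the TMM scaling used in the test the median log2 fold change of all genes was 0.16, and under library totals it was 1.11.

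The catalytic pair can be set beside each other within a library without any scaling between libraries. Ezh2 made up 89.6%, 77.2% and 36.3% of the counts of Ezh1 and Ezh2 in dTAG replicates 1, 2 and 3, against 84.0%, 86.0% and 80.01% in the controls. The share in dTAG replicate 3 (95% Wilson interval 29.4 to 43.7%) was far below the controls, and that in dTAG replicate 1 (88.4 to 90.7%) was above them. The mean was 67.7 ± 27.9% in dTAG and 83.3 ± 3.07% in controls (SD, n = 3 each), a difference of -15.6 percentage points. Without dTAG replicate 3 the difference was 0.0774 points, so it rests on that library. These are shares of counts, not of protein, and depend on the lengths of the transcripts. All tested genes at the control level of Ezh2 (100 CPM or more) had a median log2 ratio to the controls of -2.18 in dTAG replicate 3. Those at the control level of Ezh1 (10 to 30 CPM) had 1.09. Whether the Ezh2 share moved beyond pairs of genes of like levels was not tested.

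Eed (chr7:89954654-89980976), the subunit that binds the methylated histone tail and stimulates the enzyme, had 97.5, 60.05 and 38.1 CPM in dTAG replicates 1, 2 and 3, against 107, 91.5 and 99.0 CPM in the controls. Replicates 2 and 3 were below all controls, and replicate 1 was within their range. The log2 fold change of -1.03 (SE 0.71) did not pass the test (adjusted p = 0.402, edgeR).

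Suz12 (chr11:79993106-80034123), the scaffold subunit on which PRC2 assembles, had 278, 196 and 39.7 CPM in dTAG replicates 1, 2 and 3, against 260, 242 and 261 CPM in the controls. It was the steadiest of the 10 genes over the controls, with a coefficient of variation of 4.07%. Replicate 1 was above all controls, while replicates 2 and 3 were below them, so the groups overlapped in spite of the tight controls. The log2 fold change was -0.91 (SE 0.99, adjusted p = 0.518, edgeR).

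Jarid2 (chr13:44730774-44921643) and Mtf2 (chr5:108065660-108109219) encode accessory proteins that help bring PRC2 to chromatin and belong to alternative forms of the complex. Jarid2 had 333, 244 and 116 CPM in dTAG replicates 1, 2 and 3, against 362, 338 and 314 CPM in the controls. Mtf2, which binds CpG-rich DNA, had 515, 336 and 30.9 CPM in dTAG replicates 1, 2 and 3, against 523, 449 and 471 CPM in the controls. For both genes replicate 1 was within the control range and replicates 2 and 3 were below it. The widest gap was that of Mtf2 in replicate 3, at 0.0643 times the control mean, while Jarid2 in the same library was at 0.344 times. Neither passed the test: the log2 fold change was -0.98 (SE 0.90, adjusted p = 0.478, edgeR) for Jarid2 and -1.002 (SE 1.22, adjusted p = 0.556, edgeR) for Mtf2.

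Rnf2 (chr1:151469398-151500991) encodes RING1B, the main E3 ligase of PRC1 in embryonic stem cells. It had 88.9, 49.3 and 16.6 CPM in dTAG replicates 1, 2 and 3, against 84.0, 69.9 and 80.3 CPM in the controls. Replicate 1 was above every control, and replicates 2 and 3 were below every control. The log2 fold change was -0.93 (SE 0.83, adjusted p = 0.473, edgeR).

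Ring1 (chr17:34020792-34024680) encodes the paralogous ligase RING1A and had few counts in the controls. It had 4.73, 29.1 and 88.3 CPM in dTAG replicates 1, 2 and 3, against 7.58, 4.02 and 5.25 CPM in the controls. Replicate 1 was within the control range, replicate 2 was 5.18 times and replicate 3 was 15.7 times the control mean. The log2 fold change of 1.62 (SE 0.65) had an unadjusted p of 0.0372 and did not pass after adjustment over all tested genes (adjusted p = 0.182, edgeR). Taken alone against the controls, dTAG replicate 1 gave a log2 fold change of -0.32. The receptor genes named above, which had 0.0165%, 0.245% and 0.827% of the counts in dTAG replicates 1, 2 and 3, moved in the same order as Ring1, and their part in its values was not tested.

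Within the ligase pair, Rnf2 made up 94.95%, 62.9% and 15.8% of the counts of Rnf2 and Ring1 in dTAG replicates 1, 2 and 3, against 91.7%, 94.6% and 93.9% in the controls. Replicates 2 (95% Wilson interval 55.3 to 69.8%) and 3 (11.3 to 21.6%) were below every control, and replicate 1 (93.6 to 96.1%) was just above the highest control, within its interval. The mean was 57.9 ± 39.8% in dTAG and 93.4 ± 1.48% in controls (SD, n = 3 each). The difference was -35.5 percentage points with all libraries and -14.5 points without dTAG replicate 3. All tested genes at the control level of Rnf2 (30 to 100 CPM) had median log2 ratios of -0.12 and -0.22 in dTAG replicates 2 and 3. Those at the control level of Ring1 (under 10 CPM) had 1.84 and 3.34. Whether the Rnf2 share moved beyond pairs of genes of like levels was not tested.

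Pcgf6 (chr19:47033617-47050939) encodes the PCGF protein of a variant PRC1 found with MGA and L3MBTL2, which in embryonic stem cells silences germ-line genes. It had 22.3, 35.2 and 34.2 CPM in dTAG replicates 1, 2 and 3, against 22.8, 23.5 and 29.0 CPM in the controls. Replicate 1 was just below the controls and replicates 2 and 3 just above them, at 1.40 and 1.36 times the control mean. It was the narrowest of the 10 genes over the dTAG libraries, with a mean of 30.6 ± 7.17 CPM, against 25.1 ± 3.40 CPM in the controls (SD, n = 3 each). Pcgf6 made up 14.6%, 18.6% and 16.5% of the counts of the 6 Pcgf genes in dTAG replicates 1, 2 and 3, against 13.5%, 15.5% and 17.2% in the controls, and the groups overlapped.

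Cbx7 (chr15:79915804-79971143) encodes the chromodomain protein that ties canonical PRC1 to the PRC2 mark in undifferentiated embryonic stem cells. It had 48.8, 53.9 and 85.5 CPM in dTAG replicates 1, 2 and 3, against 61.4, 51.2 and 42.6 CPM in the controls. Replicates 1 and 2 were within the control range and replicate 3 was above it. As a share of the counts of the 5 Polycomb Cbx genes it held 21.9%, 20.4% and 19.3% in dTAG replicates 1, 2 and 3, against 27.6%, 23.6% and 18.9% in the controls, and all 3 dTAG shares lay within the control range. Cbx7 overlaps the annotated span of Apobec3, which had 70.9, 32.8 and 23.2 CPM in dTAG replicates 1, 2 and 3, against 73.4, 70.4 and 56.6 CPM in the controls. Whether counting used the strand is not given, so reads of the overlapping stretch could not be told apart.

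Pcgf6 and Cbx7 shared with Ezh1 a fitted sign that depends on the scaling. Their log2 fold changes were -0.46 (SE 0.37, adjusted p = 0.447, edgeR) and -0.50 (SE 0.39, adjusted p = 0.439, edgeR), and both became 0.28 with library totals. Against the median of all genes under the same scaling, all 3 were lower in both fits.

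**Figure D2:**
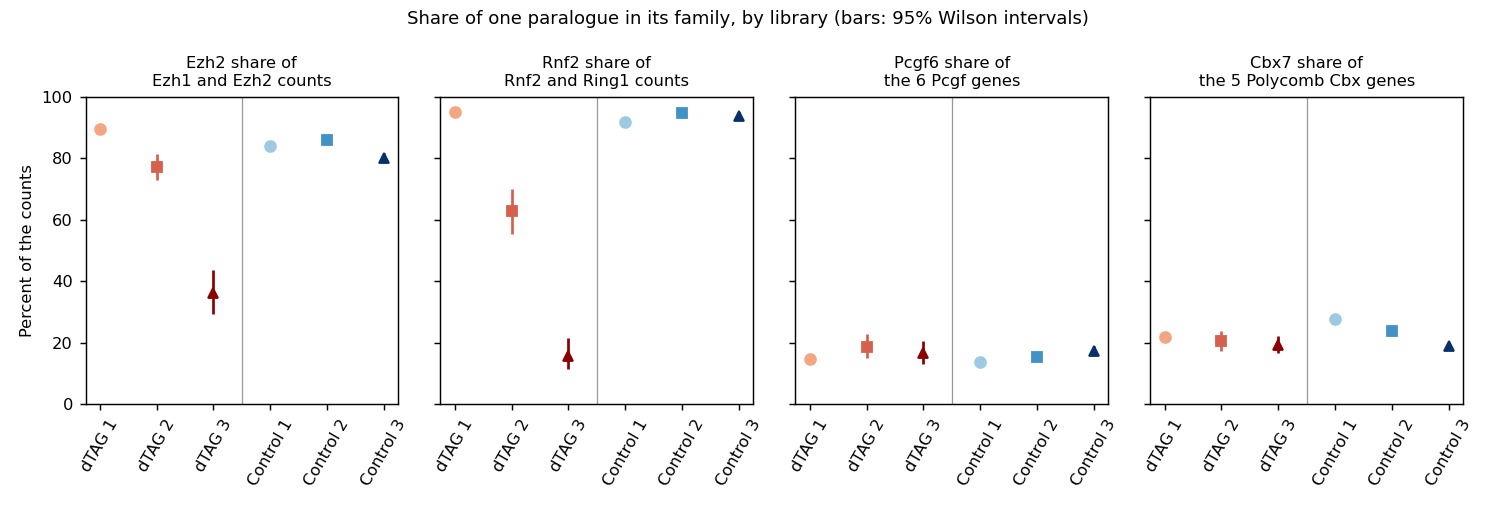
Share of the counts of each paralogue family held by a single member, in percent, by library, dTAG left of Control; bars are 95% Wilson intervals for counting error. The Ezh2 and Rnf2 shares are at 36.3% and 15.8% in dTAG replicate 3, below every control, whereas the Pcgf6 and Cbx7 shares stay within 13.5 to 27.6% in all 6 libraries. Whether these shares moved beyond genes of like control levels was not tested.

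Viewed over the whole set, dTAG replicate 1 resembled the controls and dTAG replicate 3 departed from them in both directions. The summed level of the 6 PRC2 genes was 1427, 1014 and 319 CPM in dTAG replicates 1, 2 and 3, against 1407, 1311 and 1320 CPM in the controls. The sum of the 4 PRC1 genes was 165, 167 and 225 CPM in dTAG replicates 1, 2 and 3, against 176, 149 and 157 CPM in the controls, with more Ring1 and Cbx7 and less Rnf2 in replicate 3. The range over the 10 genes narrowed: the highest was 109, 11.55 and 7.03 times the lowest in dTAG replicates 1, 2 and 3, against 69.0, 112 and 89.7 times in the controls.

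Set against the mean of the controls, as a log2 ratio of CPM + 1, the median of the 10 genes was -0.02, -0.23 and -1.44 in dTAG replicates 1, 2 and 3. Over all tested genes it was 0.06, 0.69 and 1.73, and over the 8876 genes at 10 CPM or more in the controls it was 0.03, -0.04 and 0.13. In dTAG replicate 3 the 10 genes ran from -3.92 for Mtf2 to 3.75 for Ring1. Each control set against the other 2 gave a median of 0.16, -0.14 and -0.02 for the 10 genes and 0.05, -0.07 and -0.02 for all tested genes, so the gap in dTAG replicate 1 was smaller than that in Control replicate 1. Single genes also lay above the median of all genes, as Ring1 did in dTAG replicates 2 and 3.

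**Figure D3:**
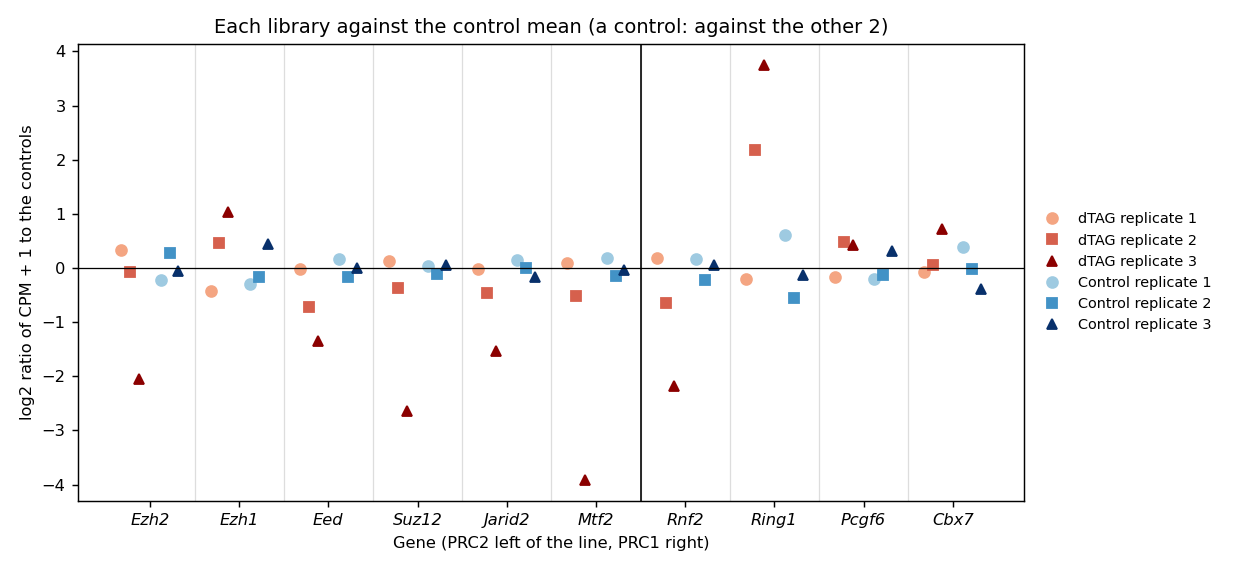
log2 ratio of CPM + 1 of each library to the mean of the controls, or for a control to the mean of the other 2 controls, for the 10 Polycomb genes. Controls stay within 0.61 of zero, while dTAG replicate 3 runs from -3.92 (Mtf2) to 3.75 (Ring1).

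The ratio in dTAG replicate 3 followed the control level of the gene. Ring1, under 10 CPM in the controls, had the highest ratio, and the 4 genes at 100 CPM or more (Ezh2, Suz12, Jarid2 and Mtf2) had ratios of -2.05, -2.65, -1.53 and -3.92. Across the 10 genes the log2 control level and the ratio had a Pearson correlation of -0.93 and a Spearman correlation of -0.84. The Spearman correlation across all 18116 tested genes was -0.82. These are descriptions across genes, which are not independent replicates, and both measures share the control level.

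Across classes of control level, the median ratio in that library was lower in each higher class, but genes within a class also differed. In the class from 30 to 100 CPM the quartiles of the log2 ratio were -1.15 and 0.59. The median log2 ratio in dTAG replicate 3 was 3.34 for all tested genes under 10 CPM in the controls, 1.09 for those from 10 to 30 CPM, -0.22 for those from 30 to 100 CPM and -2.18 for those at 100 CPM or more. Ring1 (3.75), Ezh1 (1.03), Ezh2 (-2.05), Suz12 (-2.65) and Jarid2 (-1.53) lay between the quartiles of their class. Cbx7 (0.72) lay above the upper quartile of its class, and Mtf2 (-3.92), Eed (-1.36) and Rnf2 (-2.17) lay below the lower quartile of theirs. Pcgf6 (0.43) lay between the quartiles of its class.

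**Figure D4:**
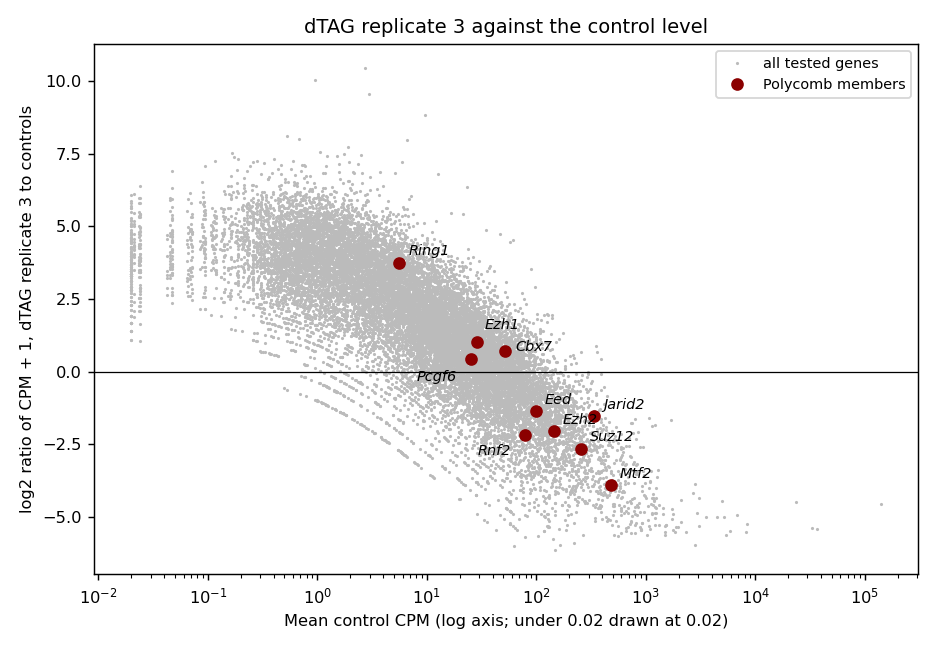
log2 ratio of CPM + 1 in dTAG replicate 3 to the controls (vertical axis) against mean control CPM (log axis) for all tested genes in grey and the 10 Polycomb genes in dark red. The Polycomb genes run along the slope of all genes, from Ring1 at 3.75 down to Mtf2 at -3.92.

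No Polycomb gene had all 3 dTAG libraries on the same side of the 3 controls. Of the 10 genes, 0 lay wholly above, beside 23.9% of all tested genes, and 0 lay wholly below, beside 3.22%. Library by library, dTAG replicate 1 had 2 of the 10 genes below the control range and 3 above, dTAG replicate 2 had 5 below and 3 above, and dTAG replicate 3 had 6 below and 4 above. Among all tested genes the shares below were 16.9%, 22.4% and 22.4% and the shares above 34.2%, 63.4% and 72.3% in dTAG replicates 1, 2 and 3.

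The median log2 fold change of the 10 genes in the fit of 3 against 3 was -0.79, beside 0.16 for all tested genes, and 9 of the 10 were negative. DESeq2 called 0 of the 10 and 17.7% of all tested genes. With no filter on low counts edgeR called 0 of the 10 and 5.45% of the genes.

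Which libraries entered decided the calls. Without dTAG replicate 1, edgeR called Eed (log2 fold change -2.22, adjusted p = 0.0162) and Rnf2 (-2.34, adjusted p = 0.0176) lower and Ring1 (1.80, adjusted p = 0.00248) higher, 3 of the 10 genes, beside 59.8% of all genes tested. With dTAG replicate 1 alone against the 3 controls, 0 of the 10 were called, beside 0.0882% of the genes tested, under the assumption that the lone library varies like the controls. In that fit the log2 fold changes ran from -0.54 for Ezh1 (SE 0.28, adjusted p = 0.894) to 0.24 for Ezh2 (SE 0.14, adjusted p = 0.957). Of the subunits with a negative fold change over all libraries, Ezh2, Suz12 (0.044), Mtf2 (0.018) and Rnf2 (0.11) had a positive one there.

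The remaining PRC2 subunits comprised 7 measured genes, of which edgeR called 0 with 1 at an unadjusted p under 0.05, and DESeq2 called 1 higher, beside 17.7% of all tested genes. Their median log2 fold change was -0.04, beside 0.16 for all genes. The most abundant were the histone-binding subunits Rbbp4 and Rbbp7. Rbbp4 had 250, 179 and 36.4 CPM in dTAG replicates 1, 2 and 3, against 302, 247 and 267 CPM in the controls. Rbbp7 had 189.97, 111 and 24.8 CPM in dTAG replicates 1, 2 and 3, against 195, 174 and 157 CPM in the controls. For Rbbp4 and Rbbp7, replicates 2 and 3 were below every control.

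The subunits Phf19 and Epop, 2 of the 7, had every dTAG library above every control, beside 23.9% of all tested genes. Phf19, a relative of Mtf2, had 1.94, 14.1 and 43.6 CPM in dTAG replicates 1, 2 and 3, against 0.562, 0.128 and 1.42 CPM in the controls (log2 fold change 3.54, SE 1.09, adjusted p = 0.111, edgeR). Epop, which links PRC2 to elongin, had 92.4, 114 and 148 CPM in dTAG replicates 1, 2 and 3, against 72.4, 71.1 and 71.7 CPM in the controls. The 3 controls of Epop agreed closely, and dTAG replicate 1, the deep library, already lay above them. Its fitted log2 fold change under TMM scaling was -0.04 (SE 0.45, adjusted p = 0.955, edgeR), below the median of all genes.

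Of the 11 other canonical PRC1 genes, edgeR called 0 with 2 at an unadjusted p under 0.05, DESeq2 called 2 higher, beside 17.7% of all tested genes, and the median log2 fold change was 0.03. Scml2, a sex comb on midleg relative, had 13.2, 41.8 and 163 CPM in dTAG replicates 1, 2 and 3, against 3.16, 5.56 and 8.37 CPM in the controls, so every dTAG library was above every control. This held for 2 of the 11 genes, beside 23.9% of all tested genes. Phc1, the polyhomeotic subunit, had 105, 114 and 62.3 CPM in dTAG replicates 1, 2 and 3, against 119, 113 and 99.6 CPM in the controls. Cbx8, a chromodomain relative of Cbx7, had 123, 67.6 and 25.9 CPM in dTAG replicates 1, 2 and 3, against 102, 105 and 117 CPM in the controls.

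Of the 12 other variant PRC1 genes, edgeR called 0 with 0 at an unadjusted p under 0.05. DESeq2 called 0, beside 17.7% of all tested genes. The median log2 fold change was -0.62, beside 0.16 for all tested genes. Mga, the DNA-binding partner of Pcgf6, was the only gene of this list with every dTAG library below every control, at 200.2, 200.3 and 113 CPM in dTAG replicates 1, 2 and 3, against 226, 222 and 236 CPM in the controls. Its log2 fold change was -0.94 (SE 0.75, adjusted p = 0.446, edgeR). Mga was 1 of the 12 genes, beside 3.22% of all tested genes lying wholly below the controls. Rybp, a subunit of variant PRC1 that stands in for the CBX protein, had 97.9, 78.8 and 64.6 CPM in dTAG replicates 1, 2 and 3, against 112, 86.8 and 97.4 CPM in the controls. Bcorl1, a corepressor that works with Pcgf1, was the only one with every dTAG library above every control, at 50.6, 56.8 and 61.2 CPM in dTAG replicates 1, 2 and 3, against 39.6, 42.3 and 39.1 CPM in the controls. Bcorl1 was 1 of the 12 genes, beside 23.9% of all tested genes lying wholly above the controls.

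The 30 genes listed as textbook Polycomb targets, all developmental regulators or cell cycle inhibitors, had low control levels, with a median of 1.44 to 2.21 CPM per control library. The median was 2.48, 15.95 and 43.0 CPM in dTAG replicates 1, 2 and 3. EdgeR called 0 of the 30 with 17 at an unadjusted p under 0.05, DESeq2 called 14 higher, and the median log2 fold change was 2.18. Over all 18116 tested genes, 4202 had an unadjusted p under 0.05, DESeq2 called 17.7%, and the median was 0.16. In 14 of the 30, every dTAG library was above every control, and in 0 every dTAG library was below, beside 23.9% and 3.22% of all tested genes. Nkx2-5, a heart regulator, had 2.56, 26.7 and 75.6 CPM in dTAG replicates 1, 2 and 3, against 0.562, 0.767 and 0.71 CPM in the controls, with a log2 fold change of 4.398 (SE 0.89, adjusted p = 0.0795, edgeR).

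With dTAG replicate 1 alone against the controls, 0 of the 30 targets were called and their median log2 fold change was 0.31, beside -0.02 for all genes. The target sum was 109, 519 and 1459 CPM in dTAG replicates 1, 2 and 3, against 79.1 to 108 CPM in the controls. Receptor genes, which embryonic stem cells are not known to use, were higher in the same order (0.0165%, 0.245% and 0.827% of counts in dTAG replicates 1, 2 and 3), and so was the median ratio of all tested genes under 10 CPM in the controls (0.16, 1.84 and 3.34). Their part in the target values was not tested. Nkx6-1, a regulator of pancreas and spinal cord, had 10.5, 21.6 and 50.8 CPM in dTAG replicates 1, 2 and 3, against 17.3, 12.8 and 15.0 CPM in the controls.

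**Figure D5:**
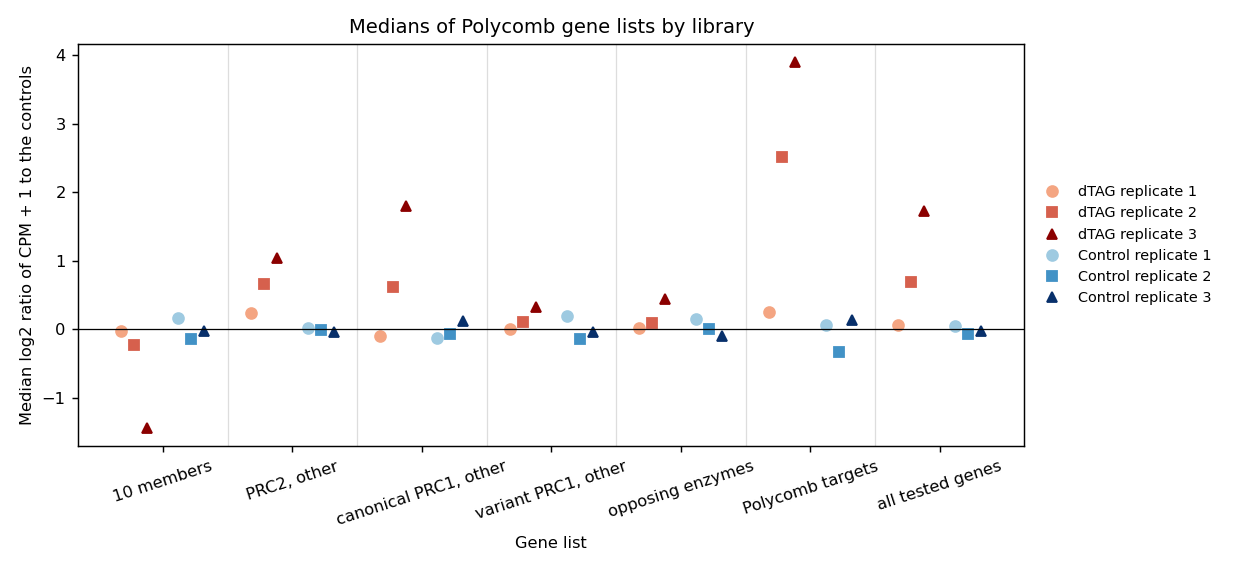
Median log2 ratio of CPM + 1 to the controls in each library, dTAG left of Control, for the 10 Polycomb genes, the other PRC2, canonical PRC1 and variant PRC1 subunits, the opposing enzymes, the Polycomb targets and all tested genes. In dTAG replicate 3 the 10 Polycomb genes are at -1.44, the targets at 3.895 and all tested genes at 1.73; lists not drawn were as low, with the Trim28 and Setdb1 genes at -1.47 and the embryonic stem cell markers at -1.91.

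Enzymes that oppose Polycomb were not called either. Of the 8 genes of the BAP1 deubiquitinase complex and the lysine 27 demethylases, edgeR called 0 with 0 at an unadjusted p under 0.05. DESeq2 called 0, beside 17.7% of all tested genes. The median log2 fold change was -0.57, beside 0.16 for all tested genes. Kdm6b, a demethylase that removes the PRC2 mark, had 405, 496 and 249 CPM in dTAG replicates 1, 2 and 3, against 503, 439 and 384 CPM in the controls. Asxl1, the cofactor of BAP1, had 115, 104 and 119 CPM in dTAG replicates 1, 2 and 3, against 135, 111 and 117 CPM in the controls. Mbd6, a partner of the same complex, was above every control in every dTAG library, at 28.3, 62.4 and 127 CPM in dTAG replicates 1, 2 and 3, against 25.4, 20.2 and 23.7 CPM in the controls. So was Mbd5, its relative, at 32.9, 36.1 and 66.8 CPM in dTAG replicates 1, 2 and 3, against 25.3, 25.3 and 25.0 CPM in the controls. Mbd6 and Mbd5 were 2 of the 8 genes, beside 23.9% of all tested genes lying wholly above the controls.

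In the complexes that methylate lysine 4 of histone H3, the mark of active promoters, edgeR called 0 of 10 with 1 at an unadjusted p under 0.05, DESeq2 called 0, and the median log2 fold change was -0.54. Kmt2d, an enhancer methyltransferase, had 260, 320 and 409 CPM in dTAG replicates 1, 2 and 3, against 288, 229 and 249 CPM in the controls. Ash2l, a shared core subunit, had 207, 128 and 25.4 CPM in dTAG replicates 1, 2 and 3, against 224, 192 and 179 CPM in the controls. The Trim28 and Setdb1 silencing machinery places methyl groups on lysine 9 of histone H3. Of its 10 genes, edgeR called 0 with 0 at an unadjusted p under 0.05, DESeq2 called 0, and the median was -0.87. Over all tested genes DESeq2 called 17.7%, and the median log2 fold change was 0.16. Trim28 had 699, 442 and 98.8 CPM in dTAG replicates 1, 2 and 3, against 613, 569 and 611 CPM in the controls. Cbx5, a reader of that mark, had 257, 177 and 54.1 CPM in dTAG replicates 1, 2 and 3, against 238, 231 and 213 CPM in the controls.

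These counts of 0 depended on the filter and on the libraries. With no filter on low counts and all libraries kept, edgeR called 6 of the 30 Polycomb targets and 2 of the 11 other canonical PRC1 genes higher, beside 5.45% of the genes tested. Without dTAG replicate 1, edgeR called 1 higher and 1 lower of the 7 other PRC2 genes, 2 higher and 2 lower of the 11 other canonical PRC1 genes, and 0 higher and 5 lower of the 12 other variant PRC1 genes. It called 20 higher and 1 lower of the 30 Polycomb targets. Of the opposing enzymes it called 1 higher and 2 lower, of the lysine 4 complexes 1 higher and 3 lower, and of the Trim28 and Setdb1 genes 0 higher and 5 lower. The calls without dTAG replicate 1 stand beside 59.8% of all genes called in that fit.

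Markers of cell identity moved with dTAG replicates 2 and 3, and their part in the Polycomb values was not tested. The 9 embryonic stem cell markers summed to 2840, 1688 and 493 CPM in dTAG replicates 1, 2 and 3, against 2616 to 2754 CPM in the controls. The 10 feeder fibroblast markers summed to 27.0, 153 and 494 CPM in dTAG replicates 1, 2 and 3, against 26.9 to 38.9 CPM in the controls, and Col3a1 was at 0 in dTAG replicate 1 and in every control. The 8 primitive endoderm markers summed to 37.8, 171 and 482 CPM in dTAG replicates 1, 2 and 3, against 24.3 to 38.3 CPM in the controls. The 8 trophoblast markers summed to 207, 241 and 370.2 CPM in dTAG replicates 1, 2 and 3, against 171 to 230 CPM in the controls. In dTAG replicate 1 the fibroblast, endoderm and trophoblast sums were within the control range, and the stem cell sum was above it. Median control levels were 1.19, 2.37 and 5.47 CPM for these 3 lists and 223 CPM for the stem cell markers. All tested genes under 10 CPM in the controls had median log2 ratios of 1.84 and 3.34 in dTAG replicates 2 and 3. Those at 100 CPM or more had -0.47 and -2.18. Whether the markers moved beyond genes of like level was not tested.

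Over the 6 libraries, the genes nearest to Ezh2 by Euclidean distance between centred log2(CPM + 1) profiles were Clk1 (distance 0.208), Mettl6 (0.292) and Dnajc15 (0.299). The genes nearest to Rnf2 were Zfp961 (0.142), Psmb6 (0.156) and Psmd2 (0.156). Clk1, a kinase of splicing factors, had 109, 76.9 and 17.7 CPM in dTAG replicates 1, 2 and 3, against 75.3, 97.5 and 89.98 CPM in the controls. Like Ezh2, Clk1 lay above every control in replicate 1, a likeness that the choice by distance over all 6 libraries favours.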

How the data were processed

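RNA-seq counts of 6 libraries (3 dTAG, 3 Control) were analysed; the other 83 of the 89 samples were not used here. The authors deposited raw counts per gene in a single table, with columns matched to samples by title. The submitters' processing notes list build mm10 and, with no role or order, limma, edgeR, featureCounts and STAR 2.7.2b. Settings and use of strand in counting are not given in the labels. Per the labels' protocols, ERCC spike-ins were added and libraries were called stranded and ribo-depleted although an mRNA kit is named; 0 ERCC features were in the table, so total RNA per cell was not measured. The 903 features without a gene name, of 27179, were left out; they held 2.33%, 6.67% and 14.6% of counts in dTAG replicates 1, 2 and 3, and 2.20% to 2.37% in controls.

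Tests used edgeR 4.0.16 (R 4.3.3; glmQLFit and glmQLFTest, two-sided, group alone), with TMM factors (0.789, 1.23 and 2.31 for dTAG replicates 1 to 3, 0.742 to 0.805 for controls), filterByExpr at a minimum count of 10, and Benjamini-Hochberg adjustment. DESeq2 1.42.0 was an alternative. The procedure was run on simulated counts with less spread between libraries than these data and no composition shift like theirs. That run therefore does not measure its power here. CPM were computed in Python 3.11.15 with pandas 2.3.3 per 1000000 named counts. One count is worth 0.0775, 0.469 and 0.552 CPM in dTAG replicates 1, 2 and 3, and 0.0639 to 0.0710 CPM in controls. Poisson and Wilson intervals (95%, scipy 1.17.1) cover counting error only, since reads carry no molecular identifiers. An exact permutation test of 3 against 3 libraries cannot go below p = 0.1, so none was run.

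The members and the other gene lists were chosen with earlier results of these data known. All 10 members are described. From each other list the text names genes past the threshold or, with none, the 2 with the highest mean control CPM, and some whose 3 dTAG values lie outside the control range; some genes that the rule names are not reported here. Likeness to Ezh2 and Rnf2 leaves out members, predicted genes and pseudogenes. Promoter sequences and gene spans are from RefSeq, build GRCm38.p6.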

Additional observations from a re-analysis of the deposited data

Results flagged for a closer look

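Features without a gene name, which entered no comparison, held 6.67% of the counts in dTAG replicate 2 and 14.6% in dTAG replicate 3, above the 2.20% to 2.37% in the controls. In dTAG replicate 1 the share was 2.33%.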

How the results depend on the processing

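Of 130 recomputed log2 fold changes of the 10 Polycomb genes, 119 kept their direction and their side of the threshold, 3 passed it and 8 changed sign. With library totals in place of TMM, Ezh1 (0.48), Pcgf6 (0.28) and Cbx7 (0.28) changed sign. With dTAG replicate 1 alone, Ezh2 (0.24), Suz12 (0.044), Mtf2 (0.018), Rnf2 (0.11) and Ring1 (-0.32) changed sign. Genes called, 0 in the fit of 3 against 3, were 1398 with no filter on low counts, 3206 with DESeq2, 13 with the replicate block and 16 with dTAG replicate 1 alone, and 0 to 13222 with a library left out. The count of 13222 came without dTAG replicate 1, which leaves 2 dTAG libraries. Polycomb genes called were 0 to 3 with a library left out, and 0 in the other settings. The median of the 10 genes minus that of all genes, -0.95, was -1.53 with library totals, -1.87 with no filter, -1.51 with the replicate block and -0.089 with dTAG replicate 1 alone, and ran from -2.61 (without dTAG replicate 1) to -0.44 (without dTAG replicate 3) with a library left out. The Ezh2 share difference ran from -26.6 to 0.0774 percentage points with a dTAG library left out. The cause of these shifts was not tested.

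Deviations of same-numbered libraries from their group means correlated at 0.05, -0.02 and 0.03. With dTAG replicates 2 and 3 so unlike replicate 1, these values cannot decide whether the libraries were paired. The replicate block changed no call among the 10 genes, but moved their median minus that of all genes from -0.95 to -1.51. Some values rest on few counts. Ring1 had 61, 62 and 160 counts in dTAG replicates 1, 2 and 3, against 63 to 108 in the controls. In dTAG replicate 3, Rnf2 had 30 counts and Mtf2 had 56.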
